A study of Mus musculus with 12 samples.

Results

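The interferon-inducible GTPases described here are 10 mouse genes of 2 related families: the immunity-related GTPases Tgtp1, Tgtp2, Irgm1, Irgm2 and Igtp, and the guanylate-binding proteins Gbp2, Gbp3, Gbp5, Gbp7 and Gbp9. They were picked by gene symbol, and all 10 are among the 40077 genes of the cell table and the 34508 genes of the tumor table. The set was drawn up around Tgtp1 because it stood among the largest rises in treated tumors, so the tumor differences of the members are given below as a description, and the calls counted among them support nothing. The stated reason for that choice does not rest on the cell contrast, which was tested. Earlier results of these data were known when the set was chosen, however.

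RNA was sequenced from 12 libraries in 2 experiments. Myc-CaP cells, a mouse prostate carcinoma line driven by a human MYC transgene, gave 3 libraries after culture in DMSO and 3 after 24 hours in YJ1206, dosed at 1 μM. Myc-CaP tumors were grown under the skin of immune-competent male FVB mice. The animals received vehicle or 100 mg per kg of YJ1206 by mouth, in 3 doses per week, and each group gave 3 libraries. Neither the labels nor the methods give the animals' age or the length of treatment. YJ1206 is a PROTAC degrader, a molecule that tags the transcriptional kinases CDK12 and CDK13 for destruction. All groups carry the MYC transgene, and all come from a single line. The study's methods describe its replicates in general as biologically independent, and the labels name no culture or animal for a library.

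Both GTPase families are effectors of cell-autonomous immunity. Interferon-γ binds its receptor, JAK kinases pass the signal to the nucleus, and IRF1 is among the factors that switch the genes on through GAS and ISRE elements in their promoters. The large GTPases then load onto the membranes of vacuoles that hold bacteria or parasites and break them open. IRGM proteins (Irgm1, Irgm2 and Igtp) sit on the cell's own membranes and hold the effector GTPases inactive there, whereas Tgtp1 and Tgtp2, also called Irgb6, are effectors that are sent to the vacuole. GBPs follow the IRGs, and several of them feed inflammasome activation. Loading depends on the autophagy machinery that conjugates ATG8 proteins.

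The members lie in 4 places of the GRCm38 genome. Irgm1 (chr11:48861968-48871683, minus strand), Tgtp1 (chr11:48985327-48994172, minus strand) and Tgtp2 (chr11:49057194-49064206, minus strand) form one group on chromosome 11. Igtp (chr11:58199556-58207591, plus strand) and Irgm2 (chr11:58199618-58222782, plus strand) form another group on the same chromosome. In the GENCODE vM21 annotation these last genes overlap by 7974 bases on the same strand, measured from gene start to gene end. Whether exons are shared in that span, so that reads could come from either gene, was not examined. Gbp5, Gbp7, Gbp3 and Gbp2 follow each other on the plus strand between chr3:142493978 and chr3:142638008, and Gbp9 (chr5:105077630-105139539, minus strand) belongs to the cluster on chromosome 5. The coding sequences of Tgtp1 and Tgtp2 are both 1245 bases long and differ at 4 of them, an identity of 99.7%. Reads can hardly tell these copies apart, and their counts were therefore summed into 1 feature, written Tgtp1+Tgtp2, which leaves 9 features. The next most alike pairs were far more distinct, with 78.6% identity of aligned bases between Gbp3 and Gbp7 and 73.2% between Irgm2 and Igtp.

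The promoter sequences carry the elements through which interferon is known to act on these genes. RefSeq promoters (GRCm38.p6, 250 bases before to 50 after the transcript start) matched 9 of the 10 members, Gbp9 being the exception. The core of the ISRE was searched as GAAANNGAAA and the GAS as TTCNNNGAA, each on both strands. An ISRE core lay in a promoter of all 9 members, against 3.44% of the 32851 mouse promoters of the same length, and a GAS lay in 6, against 8.30%. The 4 sequences below show the stretch around the ISRE core in the IRG genes that hold both elements, read in the direction of transcription, with matches to GAS and ISRE core in capitals.

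Tgtp1 (chr11:48992299-48992363, minus strand): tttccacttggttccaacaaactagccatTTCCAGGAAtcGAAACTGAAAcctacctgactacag
Tgtp2 (chr11:49064258-49064322, minus strand): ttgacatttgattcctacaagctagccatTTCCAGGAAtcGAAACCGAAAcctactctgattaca
Igtp (chr11:58199482-58199546, plus strand): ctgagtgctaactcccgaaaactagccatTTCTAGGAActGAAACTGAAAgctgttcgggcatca
Irgm2 (chr11:58214873-58214937, plus strand): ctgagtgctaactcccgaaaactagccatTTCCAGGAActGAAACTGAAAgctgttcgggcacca

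In these 4 genes the GAS and the ISRE core stood 2 bases apart and in the same order. Igtp and Irgm2 were the same at 63 of the 65 bases shown, whereas Tgtp1 and Tgtp2, nearly identical in their coding sequence, were the same at 49. The arrangement was noticed in these sequences and then searched for as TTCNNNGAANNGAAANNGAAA. It lay in 5 of the 32851 promoters, those of Tgtp1, Tgtp2, Igtp, Irgm2 and Gm12185, another gene of the IRG family. The stretches shown for Tgtp1 and Irgm2 lie in introns of longer GENCODE transcripts, and those for Tgtp2 and Igtp lie upstream of the gene.

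Irgm1 and the GBP genes carry the ISRE core without that partner. The next sequences show the ISRE core of the remaining IRGM gene and of the GBPs, again with matches in capitals. Irgm1 and Gbp2 are shown over a shorter stretch because it is exonic in GENCODE.

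Irgm1 (chr11:48871428-48871457, minus strand): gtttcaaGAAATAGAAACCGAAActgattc
Gbp2 (chr3:142620594-142620623, plus strand): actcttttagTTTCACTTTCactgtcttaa
Gbp3 (chr3:142559959-142560025, plus strand): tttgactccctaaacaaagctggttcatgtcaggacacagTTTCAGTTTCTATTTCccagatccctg
Gbp5 (chr3:142496729-142496793, plus strand): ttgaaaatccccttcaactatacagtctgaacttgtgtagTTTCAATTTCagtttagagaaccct
Gbp7 (chr3:142530243-142530307, plus strand): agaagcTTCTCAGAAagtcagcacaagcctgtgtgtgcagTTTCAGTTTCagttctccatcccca

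All 4 GBP promoters held the core in the opposite orientation to the IRG genes. Irgm1 and Gbp3 each held 2 overlapping copies, and Gbp5 and Gbp7 each held 2 GAS matches that were not adjacent to the core. A match of letters is a description of the sequence and not evidence that a factor bound there.

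**Figure D1:**
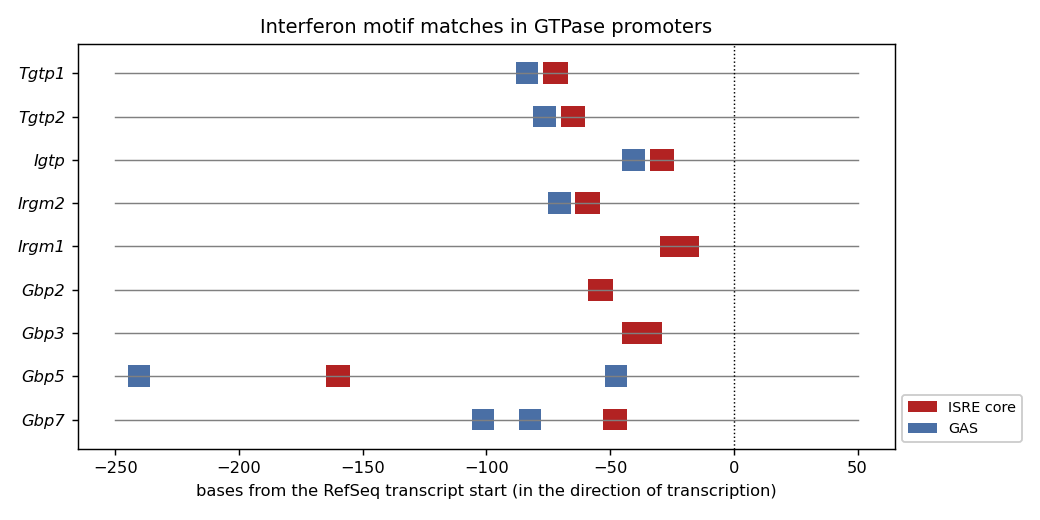
Position of each match to the ISRE core (red) and to the GAS (blue) in the promoters of 9 GTPase genes, in bases from the RefSeq transcript start on the horizontal axis (the dotted line marks the start). The ISRE cores lie between 165 bases (Gbp5) and 24 bases (Irgm1) before the start, and GAS and core lie side by side in Tgtp1, Tgtp2, Igtp and Irgm2.

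Some facts of the libraries bear on every value below. Totals were 13936902 to 18519926 counts per library in cells and 15391544 to 26928365 in tumors, so that 3 counts, taken as the floor, equal 0.162 to 0.215 CPM and 0.111 to 0.195 CPM of the library total. Of the markers of the labelled cell type, Foxa1 and Hoxb13 were detected in every library, but Epcam had no count in cells and at most 4 counts per library in tumors. Library 3 of each tumor group stood between libraries 1 and 2 at 99.3% (vehicle) and 97.5% (YJ1206) of the genes that differed over 2-fold between those libraries, so its independence is in doubt, and the tumor differences of the members and the calls in the other lists are also given without it. In cells, the library numbers of the DMSO group and of the YJ1206 group belong to separate series, so library series and treatment cannot be told apart. Skeletal muscle markers (Acta1, Ckm, Myh4 and Mylpf) summed to 618, 13.2 and 373 CPM in vehicle tumors 1, 2 and 3 and to between 5.05 and 7.53 CPM in YJ1206 tumors.

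Tgtp1 and Tgtp2 were scarce in cells and became the most abundant of these GTPases in treated tumors. In cells, control libraries held 4, 9 and 9 counts of Tgtp1 and treated libraries 7, 5 and 4, and Tgtp2 had none in any of the 6. The groups overlapped. Over 22 counts against 16, the ratio of YJ1206 to DMSO after TMM scaling was 1.06, with an exact 95% interval of 0.521 to 2.12 that covers counting error only.

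In vehicle tumors Tgtp1+Tgtp2 had 3.15, 12.3 and 4.97 CPM, and in YJ1206 tumors 62.8, 53.2 and 59.7 CPM (values scaled by TMM, as are all CPM below for members). Among the vehicle libraries, library 2 stood well above the other two, while the YJ1206 libraries were close together and all above. Even the lowest treated library was 4.31 times the highest vehicle library. The fitted log2 fold change was 3.07 ± 0.43 (SE, n = 3 per group), an 8.38-fold difference that ranked 10th by log2 fold change among the 15557 features tested, the property for which the gene was chosen. It was 3.88 without vehicle library 2 and 2.89 on libraries 1 and 2 alone. The deposited counts assigned 93.5% to 95.8% of the pair to Tgtp1 in YJ1206 tumors but 56.1%, 87.9% and 85.2% in the vehicle libraries, a split that copies this alike do not allow to be read as a difference between the genes.

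The 3 IRGM regulators were 2.00 to 2.49 times as high in treated tumors. Irgm1, which protects host membranes and guides autophagy, had 15.3, 20.1 and 15.8 CPM in vehicle tumors and 35.3, 33.5 and 33.8 CPM in YJ1206 tumors. Its libraries were tight within each group and did not overlap, with a log2 fold change of 1.00 ± 0.12. Irgm2, the regulator found on the Golgi, had 2.93, 4.95 and 4.26 CPM against 9.66, 10.2 and 10.4 CPM, a log2 fold change of 1.32 ± 0.19 without overlap.

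Igtp, also named Irgm3 and found on the endoplasmic reticulum and lipid droplets, had 1.76, 4.01 and 3.10 CPM in vehicle tumors and 7.09, 6.84 and 7.52 CPM after YJ1206. All 3 treated libraries lay above the vehicle libraries, and the log2 fold change was 1.27 ± 0.27. It ranged from 0.99 without vehicle library 1 to 1.60 without vehicle library 2. The coefficient of variation of these 3 genes was 15.5% to 38.4% in vehicle tumors and 2.72% to 4.80% in YJ1206 tumors.

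The log2 fold changes of the guanylate-binding proteins ran from 0.59 for Gbp7 to 1.32 for Gbp3. Gbp2, which targets the vacuole of Toxoplasma and helps to expose bacteria to caspase-11, had 2.61, 3.67 and 3.03 CPM in vehicle tumors against 7.53, 4.56 and 7.37 CPM. YJ1206 library 2 stood well below its group but above all vehicle libraries, and the log2 fold change was 1.05 ± 0.24. Gbp3 had 1.44, 2.66 and 2.45 CPM against 6.98, 4.74 and 4.69 CPM. Its log2 fold change of 1.32 ± 0.28 was the largest among the GBPs.

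Gbp5, known for its part in inflammasome assembly, was the scarcest member in tumors. It had 1.35, 0.90 and 1.81 CPM in vehicle tumors and 2.73, 1.97 and 2.37 CPM in YJ1206 tumors. On the CPM scale the lowest treated library was 1.09 times the highest vehicle library, and in TPM the groups overlapped (1.02 in vehicle library 3, 1.01 in YJ1206 library 2). Its log2 fold change was 0.83 ± 0.29, and it was 0.59 without vehicle library 2.

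Gbp7, a host defense GBP of the chromosome 3 cluster, had 5.09, 7.12 and 5.49 CPM against 9.93, 7.65 and 9.22 CPM. Its groups were separated by a factor of 1.07, and its log2 fold change of 0.59 ± 0.17 was the smallest of the set. Gbp9 of the chromosome 5 cluster had 2.07, 3.11 and 2.71 CPM against 7.20, 3.94 and 5.67 CPM, with a log2 fold change of 1.08 ± 0.26. Here too YJ1206 library 2 was the lowest of its group and stood 1.27 times above the highest vehicle library.

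**Figure D2:**
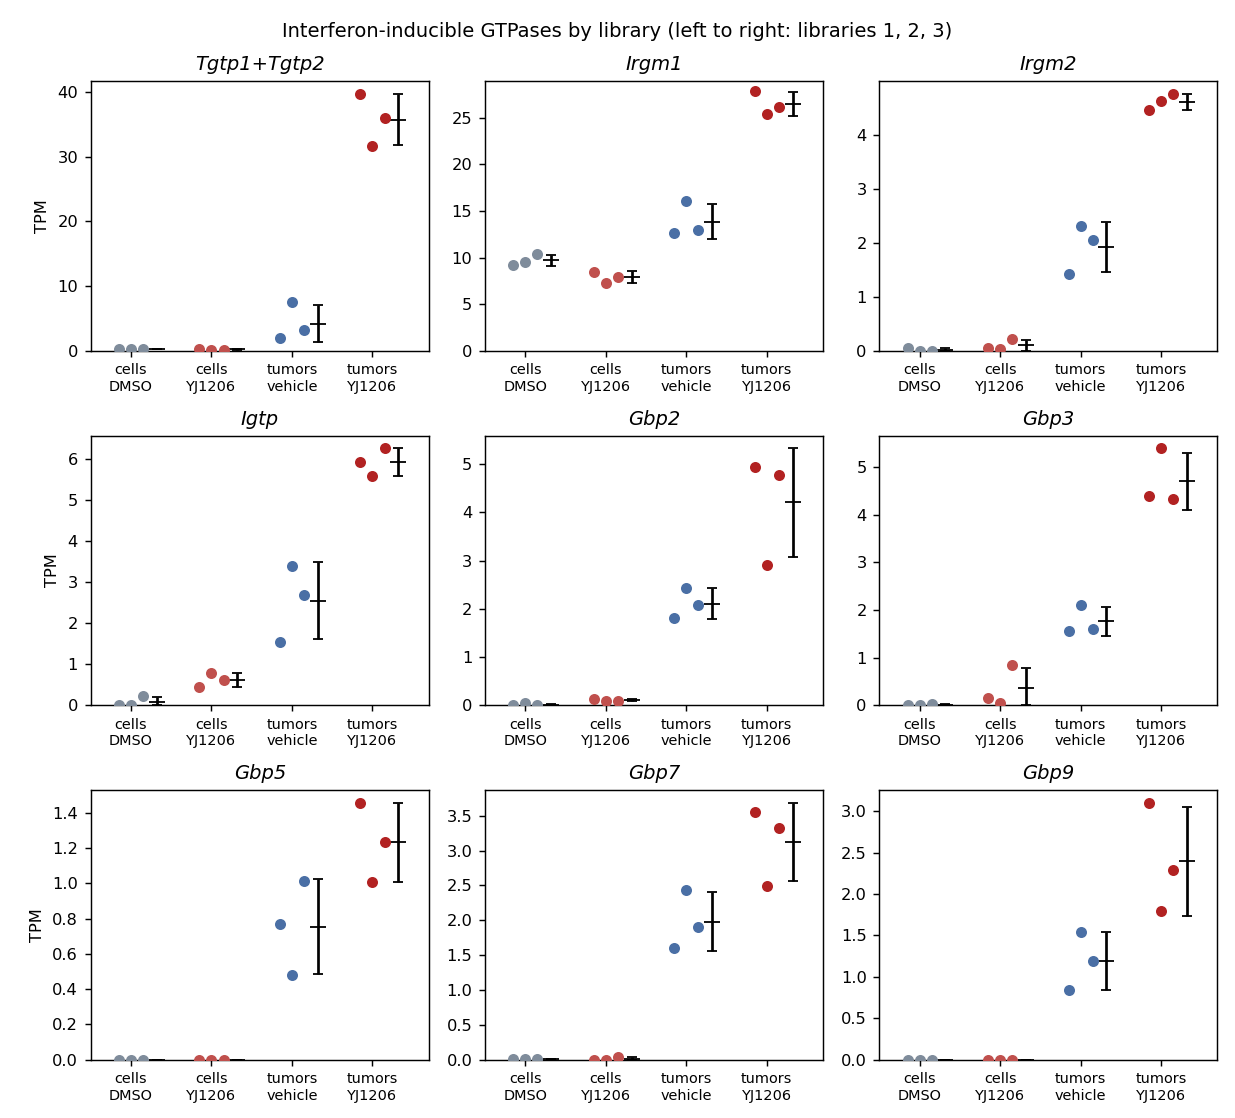
TPM of each GTPase feature in every library, with cells on the left and tumors on the right of each panel, points for libraries 1, 2 and 3 from left to right, and bars for mean ± SD of 3 libraries. Tgtp1+Tgtp2 rises from a mean of 4.20 to 35.7 TPM in tumors and stays at or under 0.33 TPM in all cell libraries, while Irgm1 lies at or above 7.23 TPM in every library.

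Across the set, all 9 features were higher in YJ1206 tumors with no overlap in CPM between the groups, against 21.8% of all tested features, and 8 of the 9, all but Gbp5, passed an edgeR adjusted p of 0.05 as higher, against 11.9% (26.8% in either direction). The members were chosen on this contrast, so nothing is read from these counts. Their median log2 fold change was 1.08 (2.11-fold) and the median of all tested features 0.01. Leaving out 1 library brought the number called to between 4 (without vehicle library 3 or without YJ1206 library 3) and 8, and it was 5 without YJ1206 library 1. On libraries 1 and 2 alone, the 9 features still did not overlap and their median log2 fold change was 1.09, but none of them was called by edgeR, in a fit that called 0.00638% of all features.

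The order of the libraries was much the same from gene to gene. Vehicle library 2 was the highest of its group for 8 of the 9 features and library 1 the lowest for 8, Gbp5 being the exception in both. Among the treated tumors, library 2 was the lowest for 7 and library 1 the highest for 7. Vehicle library 2 was also the one with the least skeletal muscle signal, given above. The summed level of 5 pan-leukocyte markers (Ptprc, Cd53, Coro1a, Laptm5 and Cd52) was 77.0, 109 and 87.7 CPM in vehicle tumors and 124, 151 and 139 CPM in YJ1206 tumors, although none of the 5 passed the test on its own. Cd52 alone had 14.9, 59.1 and 32.2 CPM against 69.8, 73.9 and 73.8 CPM. Without it the other 4 markers summed to 62.1, 50.03 and 55.5 CPM against 54.5, 77.1 and 65.3 CPM, and the groups overlapped. Among 8 T cell markers 5 were tested, and 1 was higher and 0 lower, against 11.9% and 14.9% of all features. Cd8a passed (log2 fold change 0.74), while Cd3d (-0.17), Cd4 (0.11), Cd8b1 (0.45) and Lck (0.26) did not. Cd3e and Cd3g were at or below 0.41 CPM in every tumor library. All 8 summed to 11.3 to 15.3 CPM in vehicle and 14.0 to 16.7 CPM in YJ1206 tumors, with overlap. Of 7 tested markers of macrophages and monocytes, 2 were higher and 0 lower, against 11.9% and 14.9% of all features. All 8 listed markers of that type summed to 230 to 392 CPM in vehicle and 260 to 353 CPM in YJ1206 tumors, with overlap. Of 4 tested neutrophil markers, 0 were higher and 1 was lower. All 7 markers of NK and cytotoxic cells summed to between 0.38 and 1.24 CPM. Other marker sums also did not overlap between vehicle and YJ1206 tumors. Endothelial (113 to 133 against 136 to 150 CPM), epithelial (69.7 to 85.7 against 86.6 to 96.9 CPM) and prostate luminal markers (1875 to 2108 against 3537 to 3848 CPM) were higher. Neutrophil markers (17.2 to 19.5 against 14.1 to 15.8 CPM) were lower, and fibroblast markers overlapped. The part of muscle, leukocyte and other cell content in the GTPase differences was not tested. In bulk tumor RNA, more cells of a type that express a gene and more RNA of that gene per cell cannot be told apart.

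**Figure D3:**
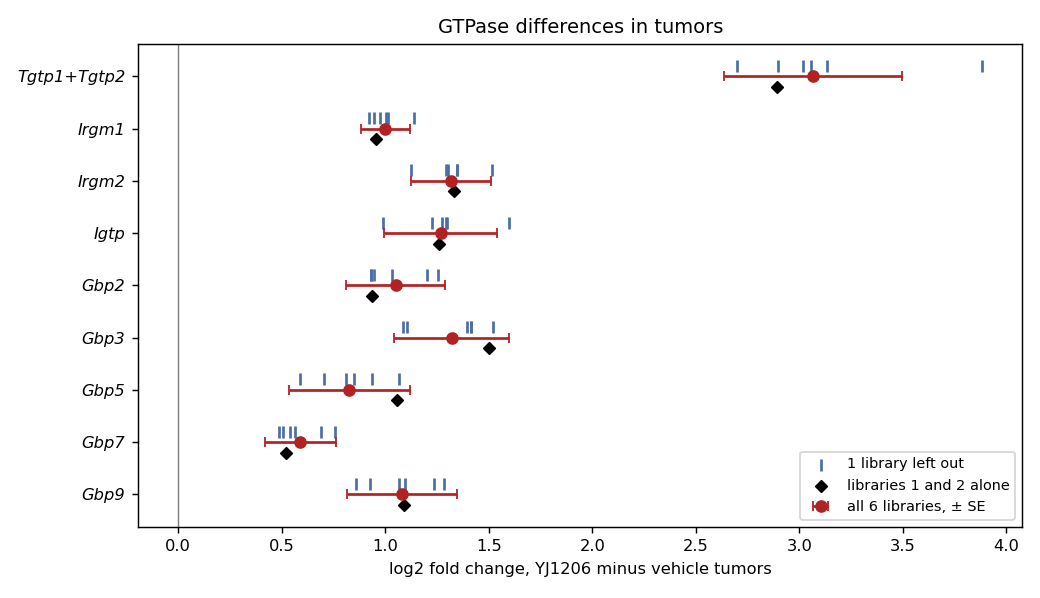
Log2 fold change of each GTPase feature between YJ1206 and vehicle tumors (horizontal axis), as fitted on all 6 libraries with its SE (red), with 1 library left out (blue ticks) and on libraries 1 and 2 alone (black). Every value lies above 0, and Tgtp1+Tgtp2 at 3.07 stands apart from the other features, which lie between 0.59 and 1.32.

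In cultured cells most of these genes were barely detected, and only Irgm1 passed the count filter of the test. It had 10.7, 11.0 and 11.8 CPM in DMSO cells and 11.9, 10.1 and 11.3 CPM in YJ1206 cells. The groups overlapped, with a log2 fold change of -0.01 ± 0.11 and an adjusted p of 0.97 by edgeR's quasi-likelihood test, in an experiment where 76.1% of the 11826 tested features passed. On a log2(TPM + 1) scale Irgm1 was lower by -0.27 (limma adjusted p = 0.027), where the median of all features was also lower, at -0.25.

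The other features of the set had few counts in cells. Igtp had 0, 0 and 4 counts in DMSO cells and 7, 13 and 11 in YJ1206 cells. Every treated library stood above every control library, with a ratio of 11.3 and an exact 95% interval from 3.999 to 44.1. Gbp3 had 0, 0 and 1 counts against 4, 1 and 7, a ratio of 17.5 whose interval ran from 2.59 to 749.

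With the filter left off, edgeR called Igtp (adjusted p = 5.7e-05) and Gbp3 (adjusted p = 0.014) as higher. These were 2 of the 7 features with any count, in a fit that called 22.7% of all features as higher. In that fit Irgm2, with 2, 0 and 0 counts against 2, 1 and 7, had an adjusted p of 0.075. With the filter kept, Igtp entered the test when 1 of the DMSO libraries or YJ1206 library 1 was left out, and was then called (log2 fold change 2.83, 2.83 and 6.62 when DMSO library 1, 2 or 3 was dropped, 3.62 when YJ1206 library 1 was). In those fits it passed the filter only through the YJ1206 libraries, where its counts were high. The calls made there are therefore a description and support nothing. In CPM the groups did not overlap for 3 of the 7 features with any count (Igtp, Gbp2 and Gbp3), against 24.8% of all features with any count. For Gbp3 this came from library size alone, as DMSO library 3 and YJ1206 library 2 each held 1 count. Gbp2 was at or under the floor in every library.

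Gbp2 had 0, 1 and 0 counts against 3, 2 and 2, and Gbp7 had 1 in each DMSO library against 0, 0 and 1, so that both groups were at or under the floor and no fold is given. Gbp5 and Gbp9 had no count in any cell library, which at this depth allows up to 0.215 CPM. A change of these genes in cells was not detectable.

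The order of the levels differed between cells and tumors. Levels between genes are compared per length, in TPM, and the cell and tumor tables were normalized separately, so values across them are only set side by side. Irgm1 was the highest in DMSO cells (9.71 ± 0.59 TPM, mean ± SD, n = 3), in YJ1206 cells (7.88 ± 0.63 TPM) and in vehicle tumors (13.9 ± 1.91 TPM). In YJ1206 tumors it reached 26.5 ± 1.29 TPM and was second to Tgtp1+Tgtp2 at 35.7 ± 3.97 TPM, and the libraries of these features did not overlap.

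Below them, vehicle tumors held Tgtp1+Tgtp2 (4.20 ± 2.90 TPM), Igtp (2.54 ± 0.93), Gbp2 (2.11 ± 0.32), Gbp7 (1.98 ± 0.42), Irgm2 (1.93 ± 0.46) and Gbp3 (1.76 ± 0.30) with overlapping neighbors. Gbp9 (1.19 ± 0.35 TPM) came below Gbp3 without overlap, and overlapped Gbp5 (0.76 ± 0.27 TPM). YJ1206 tumors held Igtp (5.91 ± 0.34 TPM) in the third place, apart from both neighbors. Gbp3 (4.70 ± 0.60), Irgm2 (4.61 ± 0.15), Gbp2 (4.21 ± 1.12), Gbp7 (3.13 ± 0.56) and Gbp9 (2.39 ± 0.66) then followed with each neighbor overlapping the next, and Gbp5 (1.23 ± 0.22 TPM) came last, apart from Gbp9. In DMSO cells Tgtp1+Tgtp2 followed Irgm1 at 0.30 ± 0.02 TPM, and Igtp took that place in YJ1206 cells at 0.62 ± 0.18 TPM, overlapping Gbp3.

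The 5 genes whose level followed Tgtp1+Tgtp2 most closely were not members of the set. Across the 12 libraries, on log2(TPM + 1), the highest Pearson correlations among 13940 genes were those of Ppib (0.997), Gm12888 (0.997), Scnn1a (0.993), Tmprss6 (0.993) and Parva (0.992). The libraries fall into 4 groups that set most of this likeness, and it carries no test. Ppib encodes a peptidyl-prolyl isomerase of the endoplasmic reticulum and had a mean of 741 TPM in vehicle and 1171 TPM in YJ1206 tumors. Scnn1a, a subunit of the epithelial sodium channel, had 30.1 and 93.1 TPM. Among the members the closest was Irgm1 (0.986, rank 22), followed by Irgm2 (0.969, rank 117) and Gbp9 (0.961, rank 176). Gbp7 was the least alike of those compared (0.930, rank 489).

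Some related GTPases outside the set also rose in treated tumors. Of 24 listed genes, 22 are in the table and 15 were tested. Of these, 8 were higher and 0 lower, against 11.9% and 14.9% of all features, and their median log2 fold change was 0.82. They include Iigp1 (Irga6, an IRG effector, log2 fold change 1.28 ± 0.22, adjusted p = 0.0060), 9930111J21Rik1 (1.20 ± 0.23, adjusted p = 0.0090), Ifi47 (Irgd, 0.98 ± 0.19, adjusted p = 0.0092), Mx2 (an antiviral dynamin-like GTPase, 1.20 ± 0.27, adjusted p = 0.016), Gbp4 (1.06 ± 0.26, adjusted p = 0.023) and Gm12185 (1.64 ± 0.42, adjusted p = 0.027). Gm12185 passed the count filter only through the YJ1206 libraries, so its call is a description and supports nothing. The count of 8 was 5 without YJ1206 library 1 and 3 without YJ1206 library 3. Calls of Gbp4 and Gm12185 were lost without vehicle library 1 or 3 or YJ1206 library 1 or 3 (adjusted p = 0.052 to 0.11), that of Mx2 without vehicle library 3 or YJ1206 library 1 or 3 (0.055 to 0.070), and that of Ifi47 without YJ1206 library 3 (0.053). In cells 3 were tested, of which 1 was higher and 1 lower, against 37.8% and 38.3% of all features. There, 9930111J21Rik2 was higher (0.63 ± 0.20, adjusted p = 0.0073). That call was lost with total-count scaling (adjusted p = 0.052) and by limma on log2(TPM + 1) (0.30) and log2(TPM + 0.1) (0.32). Irgq, a divergent IRG gene, was lower (-0.20 ± 0.09, adjusted p = 0.047). Its call was lost with DESeq2 (adjusted p = 0.13), with a replicate block (0.052) and without DMSO library 2 (0.19), DMSO library 3 (0.072), YJ1206 library 1 (0.069) or YJ1206 library 2 (0.25).

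Genes of the interferon signalling list differed in both directions, in tumors and in cells. Ifng, which encodes interferon-γ, had no count in any of the 12 libraries. The type I interferon genes of the list, Ifnb1, Ifna1, Ifna2, Ifna4 and Ifna5, had 0 to 3 counts per library. In tumors 9 of 23 tested signalling genes rose and 3 fell, against 11.9% and 14.9% of all features, with a median log2 fold change of 0.39. The 12 calls were 7 without vehicle library 3, YJ1206 library 1 or YJ1206 library 3. Stat2 (1.28 ± 0.09, adjusted p = 0.00063), Irf1 (0.66 ± 0.07, adjusted p = 0.0014), the receptor subunit Ifnar2 (0.67 ± 0.10, adjusted p = 0.0042) and Usp18, an interferon-induced inhibitor of the receptor (1.76 ± 0.34, adjusted p = 0.0094), rose, and the inhibitor Socs3 fell by 1.12 on the log2 scale (adjusted p = 0.0048). Ciita, the activator of antigen presentation genes, was lower by -0.94 ± 0.25 (adjusted p = 0.030), and that call was lost whichever library was left out (adjusted p = 0.052 to 0.085). In cells 8 of 18 rose and 5 fell, against 37.8% and 38.3% of all features, and the median log2 fold change was 0.06. Jak1 rose by 1.11 ± 0.03, while Jak2 fell by 1.09 and Tyk2 by 1.64. Irf1 was higher by 0.24 ± 0.10 (adjusted p = 0.029). That call was lost with DESeq2 (adjusted p = 0.066), total-count scaling (0.61), no filter (0.057) and limma on either TPM scale (0.45 on each). It was also lost without DMSO library 1 (0.14), DMSO library 2 (0.076), YJ1206 library 2 (0.052) or YJ1206 library 3 (0.076). Irf7 had 2 counts over the DMSO libraries and 46 over the YJ1206 libraries, a ratio of 33.6 (exact 95% interval 8.78 to 285). In cells Irf7 passed the count filter only through the YJ1206 libraries, and Irf8, which fell, only through the DMSO libraries. These calls are a description and support nothing.

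The list of other interferon targets holds antigen processing genes, chemokines and antiviral genes. In tumors 10 of 28 rose and 0 fell (median log2 fold change 0.31), against 11.9% and 14.9% of all features, Tapbp (tapasin, 0.62 ± 0.05, adjusted p = 0.00072), Parp14 (0.67 ± 0.12, adjusted p = 0.0064) and Dtx3l (0.52 ± 0.08, adjusted p = 0.0049) among them. The count was 3 without vehicle library 3 or YJ1206 library 3, and 6 without YJ1206 library 1 or YJ1206 library 2. In cells 14 of 21 rose and 2 fell (median 0.61), against 37.8% and 38.3% of all features. Among the 14, Tap1, Cxcl10, Psmb8, Trim21, Nmi and Icam1 passed the count filter only through the YJ1206 libraries, where their counts were high. Their calls, and the count of 14 that holds them, are therefore a description and support nothing. The peptide transporter subunit Tap1 had 8, 9 and 13 counts in DMSO cells against 24, 25 and 27, a log2 fold change of 1.87 ± 0.35. The chemokine Cxcl10 had 1 count over the DMSO libraries and 54 over the YJ1206 libraries, a ratio of 78.8 (exact 95% interval 13.6 to 3169.6), and the immunoproteasome subunit Psmb8 had 7 against 45 counts, a ratio of 9.38 (exact 95% interval 4.2 to 24.7). Psmb8 (-0.05 ± 0.12, adjusted p = 0.81) and Tap1 (-0.05 ± 0.21, adjusted p = 0.89) did not pass in tumors, and the difference between cells and tumors was not tested.

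The partner list holds the ATG8 family and its conjugation machinery, inflammasome components and prenylation enzymes. In tumors 6 of 23 rose and 2 fell (median log2 fold change 0.17), against 11.9% and 14.9% of all features. Map1lc3b (0.70 ± 0.07, adjusted p = 0.0012), Gabarap (0.61 ± 0.07, adjusted p = 0.0017) and Gabarapl1 (0.59 ± 0.06, adjusted p = 0.0017) rose, while Il1b, the cytokine released by inflammasomes, fell by 2.78 (adjusted p = 0.0017). The count of 8 was 4 or 5 when vehicle library 1 or 3 or any YJ1206 library was left out. In cells 10 of 17 rose and 4 fell (median 0.45), against 37.8% and 38.3% of all features, led by Map1lc3b at 1.82 ± 0.05, Atg12 of the conjugation system at 1.09 ± 0.06 and Atg5 at 0.79 ± 0.07. Atg10, among those that fell, passed the count filter only through the DMSO libraries, so its call is a description.

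On tumor libraries 1 and 2 alone, none of the 38 calls of these 4 lists in tumors was made by edgeR (lowest adjusted p = 0.134). All 38 genes kept the sign of their difference there, and no log2 fold change moved by more than 0.23. Stat2 was then at 1.26, Irf1 at 0.60, Usp18 at 1.82, Tapbp at 0.62, Iigp1 at 1.23 and Il1b at -2.71.

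**Figure D4:**
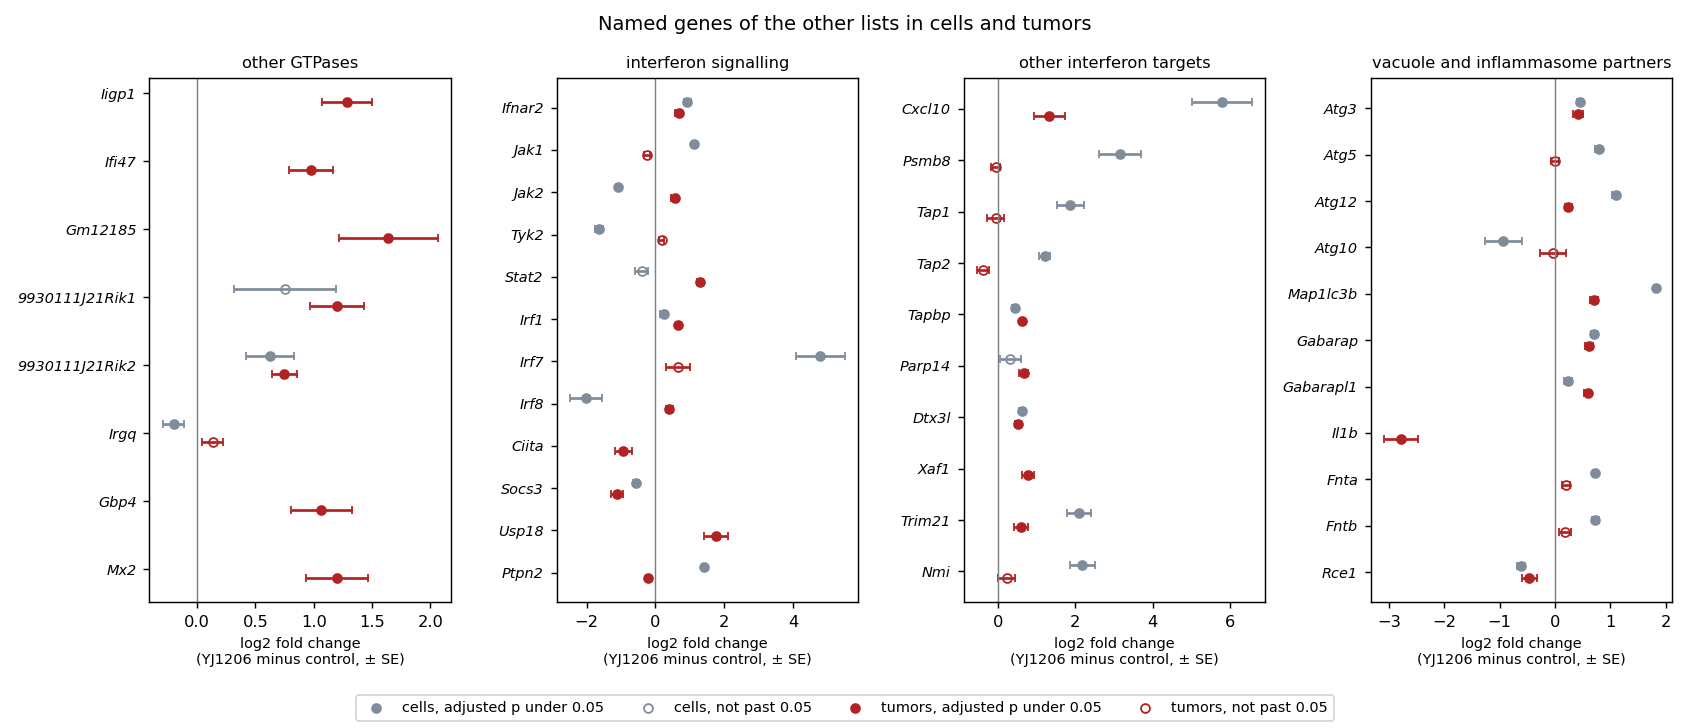
Log2 fold change (horizontal axes, YJ1206 minus control, ± SE) of the named genes of the 4 other lists in cells (grey) and tumors (red), filled where the adjusted p was under 0.05 and open where not. All 7 other GTPases shown as called in tumors lie above 0, and Jak2 is filled in both experiments, below 0 in cells and above 0 in tumors.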

How the data were processed

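RNA-seq libraries were made after ribosomal RNA depletion, per the protocol in the labels, although the molecule is labelled polyA RNA for cells and total RNA for tumors. Per the submitters' processing notes, the authors quantified transcripts with kallisto on GRCm38 (mm10), with no version given in the sources used here. Kallisto divides reads that match several transcripts among them, so near-identical copies share counts. The authors deposited gene-level estimated counts, many with decimals, and TPM values, which scale each library for length and total. Cells and tumors were in separate tables.

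Estimated counts were rounded to whole numbers. Cells and tumors were tested apart, 6 libraries each, in edgeR 4.0.16 under R 4.3.3 (filterByExpr with a minimum count of 10, TMM, quasi-likelihood test, Benjamini-Hochberg over all features, threshold 0.05), after tests on simulated data. Intervals for low counts are exact and conditional on the total. Levels of genes used TPM. Alternatives were DESeq2 1.42.0, total counts, no filter, limma 3.58.1 on log2(TPM + 1) and log2(TPM + 0.1), a replicate block, and left-out libraries. Positions came from GENCODE vM21, promoters from RefSeq, and identities from Biopython 1.88 global alignments.

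The members and lists were chosen with earlier results of these data known. The text names every member, from each other list at most 6 called genes per experiment with the largest change, Ifng and Irf1 in any case, and the 5 genes most like Tgtp1+Tgtp2. Other genes named were chosen after their values were seen. Some genes that the rule or the marker lists hold are not reported here. Doses come from the study's methods.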

Additional observations from a re-analysis of the deposited data

Results flagged for a closer look

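With 3 libraries per group, no single library was tested for standing apart. Of the named genes, 4 had all YJ1206 libraries on one side of the controls in cells and on the opposite side in tumors. The share of all features that did so was not counted, so nothing is read from this number. Jak2, the kinase of the interferon-γ receptor, had a log2 fold change of -1.09 in cells and 0.56 in tumors. Tyk2, the kinase of the type I receptor, had -1.64 in cells and 0.18 in tumors. Irf8, an interferon-induced transcription factor of myeloid cells, had -2.01 in cells and 0.40 in tumors. In cells its DMSO libraries held 21, 23 and 22 counts and its YJ1206 libraries, near the floor, 2, 5 and 4. Ptpn2, a phosphatase that acts on JAKs, had 1.42 in cells and -0.22 in tumors. In tumors Tyk2 did not pass the test (edgeR adjusted p = 0.093). The tumor call of Ptpn2 (edgeR adjusted p = 0.045) was lost with DESeq2 (adjusted p = 0.069) and whichever library was left out (0.059 to 0.12). That of Irf8 (edgeR adjusted p = 0.029) was lost without vehicle library 1 or any 1 YJ1206 library (0.066 to 0.11). The differences between cells and tumors were not tested. None of the GTPases themselves showed this, but they were chosen on the tumor contrast and most had few counts in cells, so nothing is read from it.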

How the results depend on the processing

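The number of GTPase members called in cells was 0 (edgeR, and 0 at an unadjusted p under 0.05, and 0 by DESeq2), 2 without the filter, 1 by limma on either TPM scale (Irgm1, lower) and 0 to 1 with 1 library left out. In tumors it was 8, and 4 to 8 with 1 library left out. The other GTPases called in cells were 2, against 1 by DESeq2, 1 with total counts, 4 without the filter, 1 by limma on either scale, and 1 to 3 with 1 library left out. With 1 library left out, tumor counts were 3 to 11 for other GTPases, 7 to 14 for signalling genes, 3 to 13 for other targets and 4 to 9 for partners. By limma with pseudocounts of 1 and 0.1, they were 7 and 7 for signalling genes and 5 and 4 for other targets. On libraries 1 and 2 alone, the count was 0 for the members and 0 for each of the 4 other lists, and 1 over all features, with 3067 at an unadjusted p under 0.05.

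With a replicate block, 5 members, 5 partner genes in tumors and 1 other GTPase in cells were called. The numbers do not pair the libraries: deviations of same-numbered libraries correlated at -0.03 to 0.01 in cells and -0.01 to 0.00 in tumors.

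Signs turned by limma on TPM, with pseudocounts of 1 and 0.1, for Gabarapl1 (-0.0166 and -0.0173), Ppib (-0.0787 and -0.0788) and Scnn1a (-0.22 and -0.25) in cells and Atg5 (-0.0656 and -0.0691) in tumors. Calls over all features in tumors were 4175, against 1937 without vehicle library 3, 1877 without YJ1206 library 3, 2738 without YJ1206 library 2 and 5722 without vehicle library 2. The share of calls that were higher was 49.7% in cells, 36.1% with total counts (median of all features -0.20) and 29.2% by limma with either pseudocount, and in tumors 44.4%, 34.5% and 33.8% by limma. The 9 member differences in tumors kept their sign under every alternative run. Low counts limit what cells can show for 8 of the 9 features.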
